A study of Mus musculus with 20 samples.

Results

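The Nr4a and Egr transcription factors were examined in donor CD8+ T effector cells recovered from liver, lung, small intestine and peripheral blood during acute graft-versus-host disease. The members are 6 genes, Nr4a1, Nr4a2, Nr4a3, Egr1, Egr2 and Egr3, out of 20886 genes with a named probe on the array. They were chosen by symbol, and each gene is represented by its brightest probe on average. The 6 genes had 7 probes, since Nr4a2 had 2. Of the 6 members, 3 were measured well enough to be tested (Nr4a1, Nr4a2 and Egr1), as were 8056 genes in all.

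The study profiled 20 one-colour arrays, 5 from each site. All cells came from OT-I donors, whose CD8+ T cells carry a transgenic receptor for an ovalbumin peptide (C57BL/6-Tg(TcraTcrb)), and these cells carried the CD45.1 allele. All recipients were females of the m-act OVA strain, 8 to 16 weeks old, which express ovalbumin from a transgene under the broadly active CAG promoter on a C57Bl/6 background and carry CD45.2, as did the remaining graft cells. Recipients of every site were irradiated with 11 Gy and given 3000000 marrow cells and 15000000 splenocytes, and cells were taken 4 days later. By these labels the 4 groups differ in site alone: liver, lung and small intestine are set against blood. Any step of cell recovery that differs between sites cannot be told apart from site. CD45.1+ cells were selected with magnetic beads rather than by a CD8 gate, and the RNA was amplified in rounds before labelling. No label links an array to its animal or says whether animals were pooled, so p-values measure only the spread between these arrays.

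Nr4a proteins are orphan nuclear receptors and Egr proteins are zinc finger factors, and both families are immediate early genes switched on within the first phase of antigen receptor signalling. Calcium signals through calcineurin contribute to the induction of Nr4a genes. The Ras and ERK arm drives Egr1 through serum response factor and its partners at CArG boxes. In CD8+ T cells Nr4a1 is widely used as a readout of recent receptor engagement, the Nr4a factors are linked to tolerance and exhaustion, and Egr2 and Egr3 are linked to anergy.

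The promoters of the 3 members below are shown because both families are textbook targets of signal-regulated factors at their own start sites. Each window runs from 250 bases before to 50 bases after the start, 5′ to 3′ on the gene's strand, from RefSeq on GRCm38.p6. Windows were used for 4 of the 6 members, and Egr2 had 5 overlapping or nearby windows of which 1 is printed. Not every chromosome was searched, so the lack of a window for Egr1 or Egr3 here is not a result. Capitals mark half-sites of the cyclic AMP response element (CGTCA or TGACG on the printed strand) and, in Egr2, also a CArG box. The Nr4a1 window is chr15:101266596-101266895 (plus strand), the Nr4a2 window chr2:57123954-57124253 (minus strand) and the Egr2 window chr10:67537619-67537918 (plus strand).
Nr4a1: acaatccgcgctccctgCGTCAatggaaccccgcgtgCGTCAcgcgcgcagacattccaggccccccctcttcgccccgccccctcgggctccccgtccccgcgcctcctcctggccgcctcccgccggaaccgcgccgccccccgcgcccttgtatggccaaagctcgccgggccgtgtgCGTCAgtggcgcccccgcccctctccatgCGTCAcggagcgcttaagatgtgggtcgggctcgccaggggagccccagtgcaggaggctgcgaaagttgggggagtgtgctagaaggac
Nr4a2: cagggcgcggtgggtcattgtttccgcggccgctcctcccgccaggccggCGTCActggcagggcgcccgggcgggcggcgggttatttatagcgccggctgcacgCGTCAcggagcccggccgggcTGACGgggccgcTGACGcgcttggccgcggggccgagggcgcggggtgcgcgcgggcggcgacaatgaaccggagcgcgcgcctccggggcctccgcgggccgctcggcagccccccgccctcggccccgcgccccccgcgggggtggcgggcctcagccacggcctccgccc
Egr2: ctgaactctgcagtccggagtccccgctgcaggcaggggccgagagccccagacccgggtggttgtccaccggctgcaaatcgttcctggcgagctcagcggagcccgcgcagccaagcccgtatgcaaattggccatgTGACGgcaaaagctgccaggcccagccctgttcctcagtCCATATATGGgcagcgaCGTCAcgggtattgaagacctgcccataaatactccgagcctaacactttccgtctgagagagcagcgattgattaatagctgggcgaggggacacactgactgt
The Nr4a1 and Nr4a2 windows each held 4 half-sites, as did that of Nr4a3, while the printed Egr2 window held 2 half-sites and 1 CArG box. At least 4 half-sites occurred in 0.231% of 32851 promoter windows of the same length, and at least 1 in 20.8%. A CArG box occurred in 1.63% of windows and in 4 of the 5 Egr2 windows. Several of these Egr2 windows overlap and hold the same box, so the 2 shares cannot be set against each other. The full element TGACGTCA, which contains a half-site on each strand, was in 1.79% of windows and in none of the windows used for these 4 members. The Egr site GCGTGGGCG and the Nr4a site AAAGGTCA, searched on both strands, were likewise not found in these windows, which include none of Egr1 or Egr3. These matches describe the letters of the windows and say nothing of binding.

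Array depth and sorting bear on every value that follows. The 75th percentile of signal on an array was between 823 and 2845 intensity units, and 22.6% to 38.7% of probes were well above background. Of 15 CD8 T cell identity genes, 13 (among them Cd3e, Cd8a and Cd8b1) were well above background on 20 of 20 arrays, Ptprc on 19 and Cd247 on 1. Their summed signal, relative to the 75th percentile, was 590 to 793 on liver, 483 to 727 on lung, 265 to 942 on small intestine and 521 to 693 on blood arrays. A pair of arrays went against their labels in Paneth cell markers: the summed signal of these intestinal crypt genes was 187 on the array labelled liver 5 and 1.09 on the array labelled small intestine 5, against 58.5 to 964 on the other small intestine arrays. The other liver arrays read 1.98 to 2.46. Lung 4 (70.8) and lung 5 (60.8) lay above small intestine 3 (58.5), so this sum does not set every small intestine array apart from lung. Member results are therefore also given with liver 5 and small intestine 5 left out. In these bulk samples, fewer cells of a type and less RNA per cell cannot be told apart.

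Nr4a1 lay higher in all 3 organs than in blood on average, by 2.61-fold to 3.00-fold, but no organ passed the test across all genes. Levels are log2 signal over the array's 75th percentile, so that 0 is the 75th percentile itself. In liver the Nr4a1 levels were 4.78, 5.39, 3.50, 4.69 and 6.01. In lung they were 5.00, 5.55, 4.91, 4.00 and 4.67. In small intestine they were 4.50, 4.87, 4.60, 3.54 and 5.83, and in blood 2.83, 3.93, 4.18, 2.50 and 2.98. Of the 15 organ arrays 12 lay above the highest blood array, 4 of 5 in each organ, and the groups overlapped through 1 low array of each organ and the higher blood arrays. The means were 4.87 ± 0.93 in liver, 4.83 ± 0.56 in lung, 4.67 ± 0.82 in small intestine and 3.29 ± 0.73 in blood (SD, n = 5 each). The order was thus liver, lung, small intestine and blood. The 3 organs differed from each other by no more than 0.20, well within the spread between arrays, and the one step past that spread was the one to blood.

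**Figure D1:**
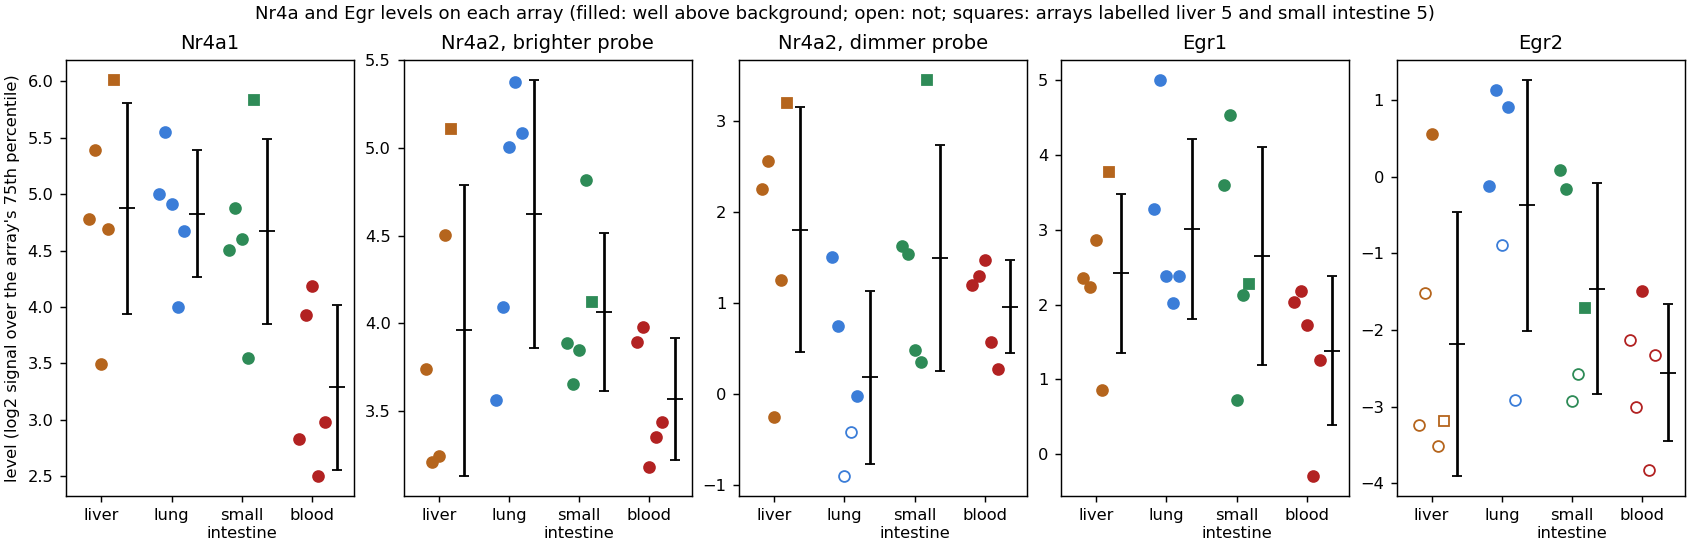
Level of each measured Nr4a and Egr probe on each of the 20 arrays, as log2 signal over the array's 75th percentile, with the mean and SD of the 5 arrays of a site to the right of its points. Filled symbols are well above background and open ones are not, squares are the arrays labelled liver 5 and small intestine 5, and vertical scales differ between panels. Nr4a1 and Egr1 lie mostly above the blood points in each organ, with overlap, whereas the 2 Nr4a2 probes place lung differently.

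The Nr4a1 difference from blood was 1.59 ± 0.46 in liver (SE; 3.00-fold, 95% interval 0.62 to 2.55), with a limma adjusted p of 0.997 and an unadjusted p of 0.0026. In that contrast no gene at all passed an adjusted p of 0.05 (0% of 8056 genes, against 225 at an unadjusted p under 0.05), so 0 members did. In lung the difference was 1.54 ± 0.46 (2.91-fold, interval 0.58 to 2.50, adjusted p = 0.108), where 0.819% of all genes passed, 0.521% higher and 0.298% lower. In small intestine it was 1.38 ± 0.46 (2.61-fold, interval 0.42 to 2.35, adjusted p = 0.056), where 10.8% of all genes passed, 0.919% higher and 9.92% lower. All 3 intervals lay above 0 before adjustment and all 3 adjusted values missed the threshold of 0.05. The median difference of all tested genes was 0.051 in the liver, -0.30 in the lung and -0.36 in the small intestine. The F-test over the 4 sites gave Nr4a1 an adjusted p of 0.091, where 0.757% of genes passed.

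Each slide carried 1 array of every site, so each slide gives its own comparison. Within slides the Nr4a1 difference of liver from blood was 1.95, 1.46, -0.69, 2.19 and 3.03. That of lung was 2.17, 1.61, 0.73, 1.50 and 1.69, and that of small intestine 1.67, 0.94, 0.42, 1.04 and 2.85. Lung and small intestine were thus above blood on 5 of 5 slides and liver on 4 of 5. With the slide as a block the small intestine difference had an adjusted p of 0.035, and 14.4% of all genes then passed. When liver 5 and small intestine 5 were left out, the differences were 1.30 in the liver, 1.54 in the lung (adjusted p = 0.051, where 2.17% of genes passed) and 1.09 in the small intestine (adjusted p = 0.062, where 26.3% passed, 4.7% higher and 21.6% lower). The F-test over the 4 sites then gave Nr4a1 an adjusted p of 0.042, where 18.8% of genes passed. Leaving both out with the slide as a block, a setting added after the values were seen, gave adjusted p of 0.025 for lung (6.8% of genes passed), 0.043 for small intestine (31.5%) and 0.019 for the 4 sites (26%).

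**Figure D2:**
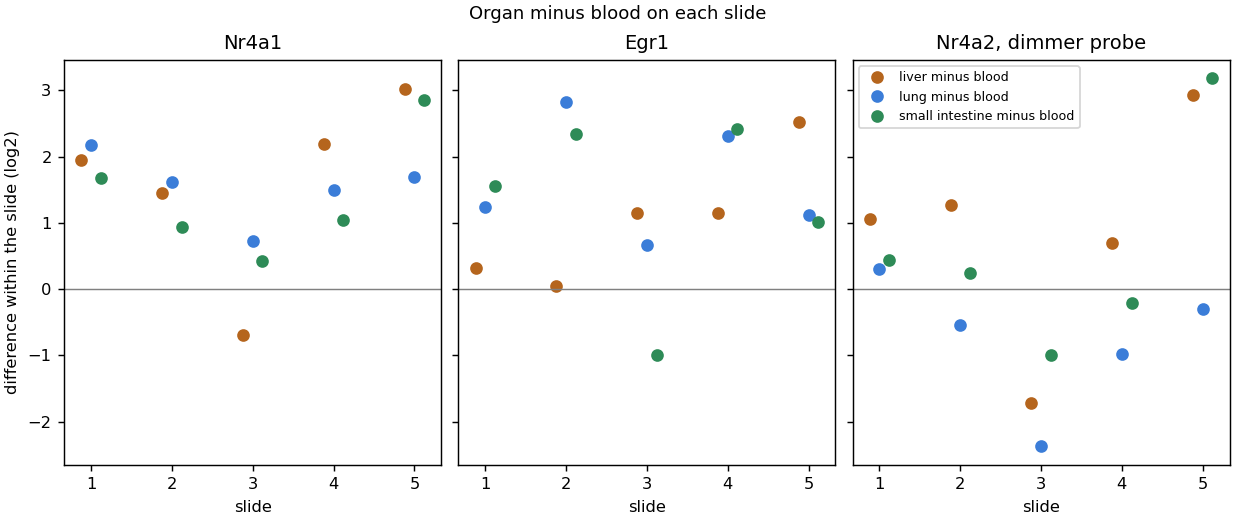
Difference of each organ from blood within each of the 5 slides, in log2 units, for Nr4a1, Egr1 and the dimmer Nr4a2 probe. Points are 1 array minus the blood array of the same slide, and slides have no order. For Nr4a1, 14 of the 15 points lie above 0, for Egr1 likewise 14 of 15, and for the dimmer Nr4a2 probe the lung points lie below 0 on 4 of 5 slides.

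Egr1, the founding Egr factor and a direct target of ERK signalling, had the same direction as Nr4a1 with a wider spread. Its levels were 2.36, 2.23, 2.87, 0.86 and 3.78 in liver. They were 3.28, 5.00, 2.38, 2.02 and 2.38 in lung, 3.60, 4.53, 0.72, 2.13 and 2.27 in small intestine, and 2.03, 2.19, 1.72, -0.29 and 1.26 in blood. Of the 15 organ arrays 11 lay above the highest blood array, 4 in the liver, 4 in the lung and 3 in the small intestine, and the groups overlapped. The means were 2.42 ± 1.06 in liver, 3.01 ± 1.21 in lung, 2.65 ± 1.46 in small intestine and 1.38 ± 1.00 in blood (SD, n = 5 each). The order was lung, small intestine, liver and blood. The organs were within each other's spread, and the step between liver and blood was about the size of 1 SD.

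The Egr1 difference from blood was 1.04 ± 0.69 in the liver (adjusted p = 0.997), 1.63 ± 0.69 in the lung (3.09-fold, interval 0.19 to 3.07, adjusted p = 0.129) and 1.27 ± 0.69 in the small intestine (2.41-fold, adjusted p = 0.200). It was positive on 5 of 5 slides in liver and lung and on 4 of 5 in small intestine. The F-test over the sites gave an adjusted p of 0.271. When liver 5 and small intestine 5 were left out, the Egr1 difference was 0.70 for liver and 1.36 for small intestine, neither past the threshold. Counted together, 0 of the 3 tested members passed in each organ against blood, and at an unadjusted p under 0.05 there were 1 in the liver, 3 in the lung and 1 in the small intestine. The share of all genes at that unadjusted level, in either direction, was 2.79% in the liver, 33.8% in the lung and 32.7% in the small intestine. The members counted were all higher, whereas most genes called in small intestine were lower (9.92% against 0.919% at an adjusted p under 0.05). The shares are therefore not a like background for these counts, and nothing is read from the counts. The count in lung includes the brighter Nr4a2 probe, whose partner differs from it in sign.

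**Figure D3:**
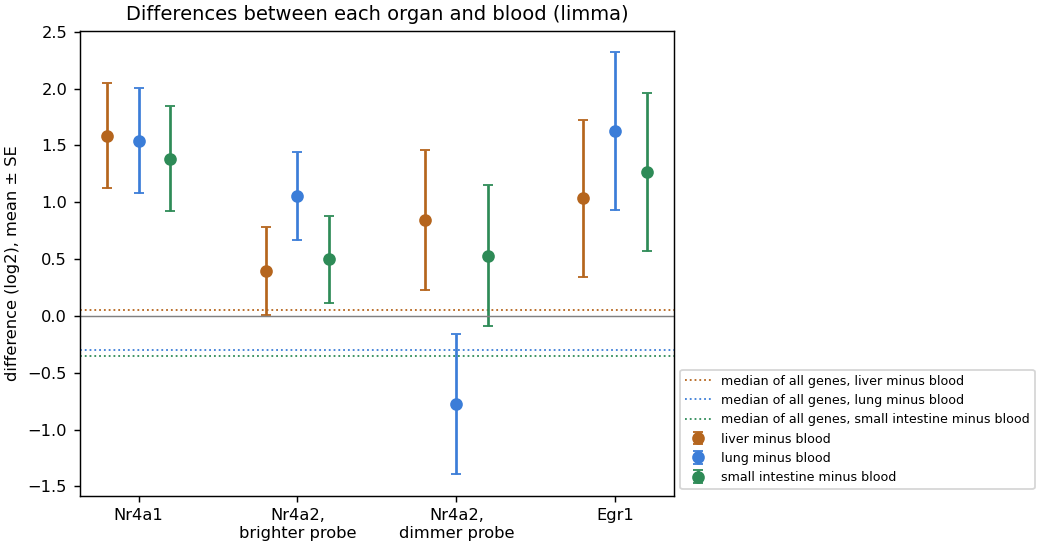
Fitted difference of liver, lung and small intestine from blood (log2, mean ± SE from limma over 20 arrays) for Nr4a1, both Nr4a2 probes and Egr1, with dotted lines at the median difference of all tested genes. Nr4a1 lies at 1.38 to 1.59 in the 3 organs, and the 2 Nr4a2 probes give lung differences of opposite sign, 1.06 and -0.78.

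Nr4a2 (Nurr1), the close relative of Nr4a1, could not be given 1 pattern, because its 2 probes disagreed. The brighter probe, which the rule selects, read 3.74, 3.21, 3.24, 4.51 and 5.11 in liver and 3.56, 4.09, 5.01, 5.38 and 5.08 in lung. It read 3.89, 3.65, 3.85, 4.82 and 4.12 in small intestine and 3.90, 3.98, 3.18, 3.35 and 3.44 in blood. Lung was highest by this probe and 4 of its 5 arrays lay above the highest blood array. Its difference from blood was 0.39 ± 0.39 in the liver, 1.06 ± 0.39 in the lung (2.08-fold, adjusted p = 0.124, positive on 4 of 5 slides) and 0.50 ± 0.39 in the small intestine.

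The dimmer Nr4a2 probe, examined after its values were seen, placed lung lowest. It read 2.25, 2.56, -0.26, 1.25 and 3.20 in liver and 1.50, 0.75, -0.90, -0.42 and -0.03 in lung, where it was well above background on 3 of 5 arrays. It read 1.62, 1.54, 0.48, 0.35 and 3.45 in small intestine and 1.19, 1.29, 1.47, 0.56 and 0.27 in blood. The highest arrays were those labelled small intestine 5 and liver 5, which are also the highest of all 20 for Nr4a1. Its difference from blood was 0.84 ± 0.62 in the liver, -0.78 ± 0.62 in the lung and 0.53 ± 0.62 in the small intestine, with adjusted p of 0.997, 0.340 and 0.498. Lung lay below liver on 5 of 5 slides, by 1.62 on average, without passing the test (adjusted p = 0.283, where 0.286% of all genes passed).

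The probes also differed in what they moved with. To describe this, each site's mean was taken off and levels were correlated over the 20 arrays, which share their scaling, so the values are descriptions. The dimmer probe followed Nr4a1 with a Pearson r of 0.81 (Spearman 0.78, n = 20), 0.69 without the 2 arrays most distant in Nr4a1 and 0.72 with liver 5 and small intestine 5 left out. The brighter probe had an r of -0.031 with Nr4a1 and of -0.086 with the dimmer probe. It moved instead with Spaca9 (r = 0.98), C8a (r = 0.97) and H2al1e (r = 0.97), a sperm acrosome gene, a liver-made complement component and a testis histone variant, each well above background on 20 of 20 arrays. Array brightness moved with several of these readings: r with the array's log2 75th percentile was -0.65 for the brighter probe, 0.52 for the dimmer probe, 0.34 for Nr4a1 and 0.14 for Egr1. The part of array brightness in these values was not tested. The genes most like the dimmer probe were Nfil3 (r = 0.91), Gtf2ird1 (r = 0.88) and Bhlhe40 (r = 0.88), of which Nfil3 and Bhlhe40 are transcription factors of activated lymphocytes.

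**Figure D4:**
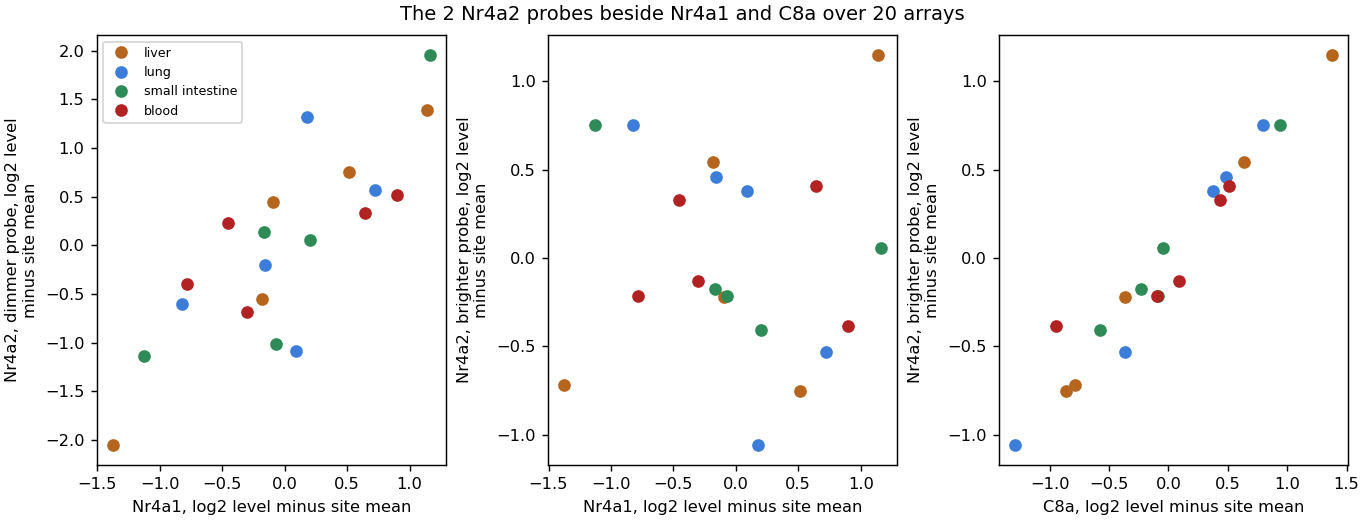
The 2 Nr4a2 probes over 20 arrays, each axis a log2 level with the mean of its site taken off. The dimmer probe follows Nr4a1 (r = 0.81), whereas the brighter probe does not (r = -0.031) and follows C8a (r = 0.97).

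The other 3 members were at or near background. Egr2, a factor tied to T cell anergy, was well above background on 8 of 20 arrays: 1 of 5 in liver, 3 of 5 in lung, 3 of 5 in small intestine and 1 of 5 in blood. Its level was 0.55 on liver array 3, -0.12, 1.13 and 0.91 on lung arrays 1, 2 and 4, and 0.08, -0.16 and -1.71 on small intestine arrays 1, 2 and 5, against -1.49 on blood array 3. On the arrays where it was not well above background it read between -3.83 and -0.89. The higher readings thus fell on organ arrays, but too few arrays measured the gene for it to be tested. Egr3, the near relative of Egr2, and Nr4a3, the third orphan receptor, were well above background on 0 of 20 arrays, and no fold is given for these 3 genes. Nr4a3 readings ran between -3.71 and -1.57 and Egr3 readings between -3.48 and -1.71, below the level that could be measured on these arrays.

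Between organs no member passed. For Nr4a1, lung minus liver was -0.046, small intestine minus liver -0.20 and small intestine minus lung -0.16, each ± 0.46. For Egr1 these were 0.59, 0.23 and -0.36, each ± 0.69. Of all genes, 0.286% passed between lung and liver (0.248% higher and 0.0372% lower in lung). Between small intestine and liver 0% passed, against 1776 genes at an unadjusted p under 0.05, and between small intestine and lung 0.149% did (0.0124% higher and 0.137% lower in small intestine). The 95% intervals for Nr4a1 spanned -1.01 to 0.92, -1.16 to 0.76 and -1.12 to 0.81, so a difference of up to about a log2 unit in either direction between organs is within them.

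Nr4a1 and Egr1 moved together only loosely from array to array within a site (r = 0.39, Spearman 0.39, n = 20, and 0.58 without the 2 arrays most distant in Nr4a1). Egr1 and Egr2 had an r of 0.56, with most Egr2 readings near background. Egr1 followed Fos, its usual companion among ERK targets, with an r of 0.68, whereas Nr4a1 had an r of 0.16 with Fos. With Cd83 the r was 0.59 for Nr4a1 and 0.40 for Egr1 (Spearman 0.51 for each). For Nr4a1 and Egr1 in turn it was 0.49 and 0.60 with Dusp1, and 0.52 and 0.34 with Cd69. The tested genes most like Nr4a1 were Gem (r = 0.87), a small GTPase induced by mitogen in T cells, Tnfaip3 (r = 0.87), which encodes the NF-kB inhibitor A20, and Tgif1 (r = 0.86), a homeobox corepressor. Those most like Egr1 were Arhgap21 (r = 0.79), Gadd45g (r = 0.78), a stress-inducible growth arrest gene, and Blzf1 (r = 0.78), a Golgi protein. All are measures over the same 20 arrays.

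Markers of other cell types also differed between sites. Of 12 monocyte and macrophage genes with a probe, 3 were well above background on any liver array, 6 on any lung array, 11 on any small intestine array and 2 on any blood array. Their summed signal was 31.3 to 49.7, 20.6 to 241, 20.4 to 304 and 20.0 to 47.4 in these sites. For 12 dendritic cell genes the summed signal was 29.2 to 122 in liver, 62.1 to 207 in lung, 44.2 to 313 in small intestine and 36.6 to 55.4 in blood, with Clec9a and Cd209a not well above background on any array. Within sites, Nr4a1 had an r of -0.18 with the monocyte and macrophage list and of -0.16 with the dendritic list. Its r was negative with each of the other 9 lists of non-T cells, down to -0.37. Without the 2 most distant arrays, that with small intestinal epithelium genes was 0.057. These arrays were picked anew for each list, by the list's mean level alone. With the CD8 T cell identity list r was 0.36 for Nr4a1 and -0.33 for Egr1. Egr1 had an r of 0.45 with the monocyte and macrophage list (0.19 without the 2 most distant arrays) and of 0.48 with the dendritic list. It had an r of 0.51 with lung epithelium genes, 0.48 with fibroblast and mural genes and -0.25 with neutrophil genes, the only non-T list with a negative value. Its r with 10 endothelial genes was 0.64 (0.39 without the 2 arrays most distant for that list). The summed signal of these genes was 3.60 to 4.50 in liver, 5.46 to 36.2 in lung, 3.10 to 15.6 in small intestine and 3.52 to 5.50 in blood. Pecam1, Tek and Emcn were not well above background on any array. The summed signal of alveolar macrophage genes was 2.66 to 911 in lung and 1.75 to 4.48 in blood. The part of other cells in the member and list differences was not tested.

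Some genes of the wider immediate early programme rose in lung and small intestine. Of 28 AP-1 and other immediate early genes 20 were tested. Against blood, 0 passed in liver (9 at an unadjusted p under 0.05, all positive), 3 passed in lung and 4 in small intestine, all higher. Of all genes, 2.79% were under that unadjusted level in liver in either direction, and 0.521% passed as higher in lung and 0.919% in small intestine. Genes that are detected in organs alone also enter these counts, so they are a description. In lung these were Fos (4.40 ± 0.87, adjusted p = 0.020), Dusp1 (2.10 ± 0.41, adjusted p = 0.018) and Jun (1.63 ± 0.35, adjusted p = 0.030). In small intestine they were Fos (3.46 ± 0.87, adjusted p = 0.023), Gadd45b (2.22 ± 0.59, adjusted p = 0.028), Dusp1 (1.81 ± 0.41, adjusted p = 0.017) and Jun (1.32 ± 0.35, adjusted p = 0.027). Fos and Jun are subunits of AP-1, Dusp1 is a phosphatase that turns off MAP kinases, and Gadd45b is a stress-inducible activator of p38. Fos averaged 2.18 ± 0.81 in the liver, 3.18 ± 1.11 in the lung and 2.24 ± 1.22 in the small intestine, against -1.22 ± 2.44 in blood. It was well above background on 2 of 5 blood arrays, so the size of its difference rests partly on readings at background. The list's median difference was 0.79 in the liver, 0.57 in the lung and 0.87 in the small intestine, beside 0.051, -0.30 and -0.36 over all genes. The calls rested on few arrays: the count in lung was 0 without lung 5, blood 3, blood 4 or blood 5 and 1 without lung 4. In small intestine it was 0 without small intestine 2, 1 without blood 4 or blood 5, and 2 without small intestine 1. Without liver 5 and small intestine 5 it was 6 (with 1 other gene lower). With scaling on the probes detected on all 20 arrays, 0 passed in either organ.

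Upstream, the 18 tested of 23 genes that carry the receptor signal to the nucleus gave no call in liver or lung (1 and 2 at an unadjusted p under 0.05). In small intestine 1 of 18 passed as lower, beside 9.92% of all genes: Nfatc2, a calcineurin-activated NFAT factor, fell by 2.58 ± 0.67 (adjusted p = 0.025). It was measured on 1 of 5 small intestine arrays and on 5 of 5 blood arrays, so the size of its fall rests partly on readings at background. The call was lost without blood 2, blood 3, blood 5, small intestine 2 or small intestine 4, and 5 of 18 passed as lower when liver 5 and small intestine 5 were left out, where 21.6% of all genes did. The list's median was 0.044 in the liver, -0.37 in the lung and -0.60 in the small intestine, beside 0.051, -0.30 and -0.36 over all genes. For the 14 tested CD8 T cell identity genes the medians against blood were 0.18, -0.090 and -0.53 in these organs. Nfatc1, its induced relative, was well above background on 4 of 20 arrays and was not tested.

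Of 21 surface and cytokine genes that the receptor induces, 20 were tested and only Cd83 passed, in small intestine (4.16 ± 0.73, adjusted p = 0.013), with levels of 4.94 ± 0.88 there and 0.79 ± 0.86 in blood. Cd83, a surface molecule of activated lymphocytes and dendritic cells, did not pass in liver (adjusted p = 0.268, with a level of 4.49 ± 1.72) or in lung (1.91 ± 0.73, adjusted p = 0.124), and its small intestine call was lost without small intestine 2. Cd69, the early activation antigen that holds T cells in tissue, differed from blood by 1.53 in the liver, 1.75 in the lung and 1.37 in the small intestine (each ± 0.70), none past the threshold. Tnfrsf9 (4-1BB), a costimulatory receptor induced by antigen, differed by 0.22, 0.14 and 0.34 (each ± 0.44). At an unadjusted p under 0.05 the list had 3 higher genes in liver, 4 higher and 1 lower in lung, and 5 higher and 1 lower in small intestine. Counted in either direction, these shares of 20 are below those of all genes in lung (33.8%) and small intestine (32.7%) and above that in liver (2.79%). Most genes called in small intestine were lower, so those shares are not a like background for the higher genes of the list. The list's medians were 0.37, 0.12 and 0.36 in liver, lung and small intestine, beside 0.051, -0.30 and -0.36 over all genes. The count in small intestine was 4 higher and 2 lower when liver 5 and small intestine 5 were left out, where 4.7% of all genes were higher and 21.6% lower.

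Among regulators of T cell restraint linked to Egr and Nr4a factors, 17 of 21 were tested, 0 passed in liver or lung (4 and 2 at an unadjusted p under 0.05) and 2 of 17 fell in small intestine, a share near the 9.92% of all genes called lower there. Irf4, a factor whose level tracks receptor signal strength, fell by 2.31 ± 0.67 (adjusted p = 0.037) and was measured on 2 of 5 small intestine arrays. The size of its fall thus rests partly on readings at background. Dgkz, the diacylglycerol kinase that damps Ras signalling, fell by 1.00 ± 0.26 (adjusted p = 0.025). Both calls were lost without blood 3, blood 5, or any one of small intestine 1, 2 and 4. Without liver 5 and small intestine 5 the count was 5, where 21.6% of all genes were lower. The Egr corepressors Nab1 and Nab2 are themselves Egr targets. Nab1 differed from blood by 0.31, -0.60 and -0.54 in liver, lung and small intestine, and Nab2 by 0.052, -0.088 and -0.84, with no call among the 6 tested of 12 Egr partners and relatives. Nab2 passed as lower in small intestine when liver 5 and small intestine 5 were left out, as did 21.6% of all genes. Egr4 was well above background on 0 of 20 arrays.

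**Figure D5:**
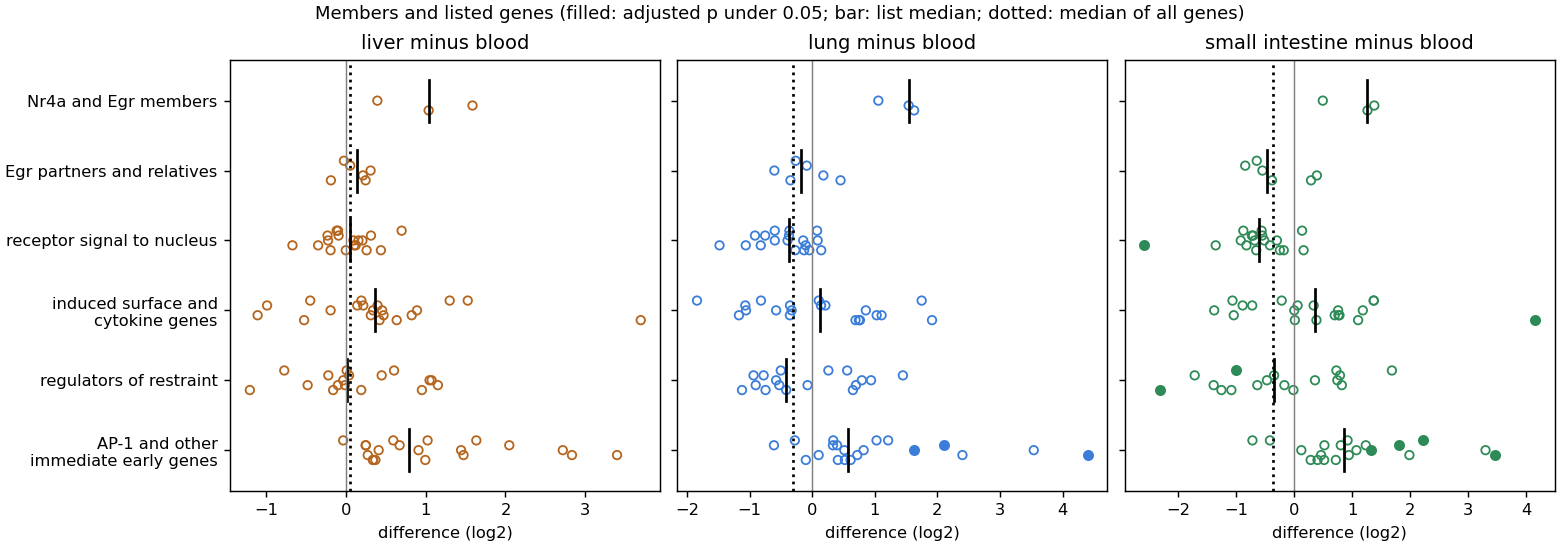
Difference of each organ from blood (log2) for the tested members and for the genes of 5 lists around them. Filled points pass a limma adjusted p of 0.05, bars are list medians and dotted lines the median of all tested genes. The members, each by its brightest probe, lie at 0.39 to 1.63 with no filled point. The dimmer Nr4a2 probe, which gave -0.78 in lung, is not drawn. The filled points of the AP-1 and immediate early list are 3 in lung and 4 in small intestine.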

How the data were processed

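Total RNA of CD45.1+ cells was hybridised to 20 one-colour (Cy3) Agilent mouse arrays, 5 each of liver, lung, small intestine and blood, grouped by title. Each array held 44397 spots, of which 1377 were controls. Per the file headers, Feature Extraction 11.0.1.1 made the processed signal, a background-subtracted intensity. Version 10.7 and Partek stand in the submitters' processing notes. The authors also deposited a log2 table of values, which matches quantile-normalized log2 processed signal (median absolute difference 0.000108) and was an alternative.

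From the intensity, log2 signal minus the array's 75th percentile was taken. Controls and 24 spots with a non-uniform flag were dropped, and replicate spots were averaged. RefSeq accessions (GRCm38.p6) gave 27508 probes 1 symbol and left 11921 without one. The array design uses another build, so no probe coordinates are given. Genes entered the test if the brightest probe cleared the background flag on 4 or more of the 5 arrays in some site. Using lmFit, contrasts.fit and eBayes, limma 3.58.1 (R 4.3.3) fitted 1 coefficient per site over 20 arrays with 16 residual degrees of freedom. Tests were two-sided with Benjamini-Hochberg adjustment over 8056 genes per contrast and a threshold of 0.05. The fit was tested on simulated data.

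The members, lists and tests were chosen with earlier results of these data known. Named were the members, up to 6 called genes per list and contrast, a fixed set of related genes, and for each tested member the 3 tested genes whose levels, with site means taken off, correlated best with it. The alternatives covered scaling, quantile normalization, normexp background correction with an offset of 50, the deposited table, the filter, the probes of a gene, the slide as a block, and arrays left out. The files hold no mean signal, so normexp used the median signal.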

Additional observations from a re-analysis of the deposited data

Results flagged for a closer look

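In groups of 5 arrays, 1 value of 48 groups of members and related genes (12 genes or probes over 4 sites) stood apart from the rest by Dixon's criterion. Nab1, an Egr corepressor, read -0.23 on the array lung 4, against 1.00 on the nearest lung array. The gap was 0.742 of the group's range, beyond the critical 0.71 for 5 samples. Chance alone puts about 1 in 20 groups beyond this limit. No member was among the values that stood apart.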

How the results depend on the processing

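Each of the 9 member differences from blood kept its direction under each of the other settings of scaling, filter, background, probe, slide and samples, and with each array left out, except that of Nr4a2 in lung with its other probe. Nr4a1 ran from 1.24 to 1.66 in liver, 1.19 to 1.60 in lung and 1.04 to 1.61 in small intestine over these settings (arrays left out singly apart), with adjusted p of 0.616 to 1.00, 0.025 to 0.168 and 0.035 to 0.154. The number of members that passed was 0 under most settings. With the replicate block (the slide, also the replicate number) it was 1 in small intestine (Nr4a1, 1.38, adjusted p = 0.035). With each array left out it was 0 to 1 in lung (Nr4a2, 1.32, adjusted p = 0.049, without lung 1, where 846 genes passed). In small intestine it was 0 to 1 (Nr4a1, adjusted p 0.043 to 0.050, without liver 3, liver 5, lung 4 or small intestine 3). Then 781, 1075, 1194 and 1914 genes passed. Over the 4 sites it was 0 to 1 (Nr4a1, without small intestine 5, where 1064 passed). Without liver 5 and small intestine 5 it was 1 over the 4 sites (18.8% of genes passed). With the replicate block as well, chosen after seeing the data, it was 1 in lung (Nr4a1, adjusted p = 0.025, 6.8% passed). It was then 1 in small intestine (adjusted p = 0.043, 31.5% passed) and 1 over the 4 sites (adjusted p = 0.019, 26% passed). The other Nr4a2 probe turned lung against blood to -0.78, lung against liver to -1.62, small intestine against liver to -0.31 and small intestine against lung to 1.31. The mean of both probes turned the last 3 to -0.48, -0.10 and 0.37.

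Small differences between organs turned sign. For Nr4a1, lung against liver was 0.062 after quantile normalization, 0.061 in the deposited table, 0.24 without liver 5 and small intestine 5, 0.30 with the replicate block as well and 0.12 with scaling on probes well above background as well. Small intestine against liver was 0.079 after quantile normalization and in the deposited table and 0.023 with that scaling, and small intestine against lung was 0.017, 0.018 and 0.068. Median scaling gave -0.20 for Nr4a2 and -0.073 for Egr1 in small intestine against liver. With each array left out, Nr4a1 ran from -0.39 to 0.24, -0.55 to 0.083 and -0.45 to 0.13 in the 3 organ contrasts. Nr4a2 ran from -0.084 to 0.39 and Egr1 from -0.24 to 0.71 in small intestine against liver, and Egr1 from -0.83 to 0.14 in small intestine against lung. The causes were not tested.

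Of all genes, 66 passed in lung (1 to 548 over these settings, and 846 without lung 1) and 873 in small intestine (19 to 2538, and 0 without small intestine 2). Scaling on the probes detected on all 20 arrays gave 4 higher and 15 lower there, against 74 and 799. Between small intestine and lung it gave 12 higher and 8 lower, and quantile normalization 10 and 17, against 1 and 11. Scaling on those probes moved the median of all genes in liver to -0.13, and median scaling moved it to -0.65 in lung and -0.59 in small intestine. Under that first scaling no AP-1 or immediate early gene passed in any organ, and the stricter filter, like a fit of the 2 sites alone, left 0 in lung. Arrays of the same slide had a median r of 0.16 between their deviations (18 of 30 pairs over 0.1), against -0.052 for arrays of other slides (37 of 120 over 0.1), and 7 of 20 arrays correlated best with one of their own slide. The slide was kept as an alternative because the labels state no model and a fit by site alone gives the most residual degrees of freedom. The number of arrays limits the precision, and dim signal limits Egr2, Egr3 and Nr4a3.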
